A study of Mus musculus with 8 samples.

Results

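The 6 mouse actin genes, Acta1, Acta2, Actc1, Actg2, Actb and Actg1, were followed in the RNA-seq of myogenic cells depleted of Septin9. They were taken by their symbols from the raw count matrix, in which they are 6 of 42391 gene entries, and none of them has a further entry under a copy name. The cells were C2C12 cells, a mouse myoblast line that forms myotubes when serum is withdrawn, and primary myoblasts grown from mouse muscle, both labelled as wild type. C2C12 cells had been transfected with a non-targeting siRNA (control) or a Septin9 siRNA at 50 nM, raised to 100 nM during the initial 5 h, and were lysed 60 h after transfection, after 12 h in differentiation medium. Primary myoblasts had received the same siRNAs and were lysed 48 h after transfection in proliferation medium. Each of the 4 groups had 2 replicates, 8 libraries in all, from 2 independent experiments. Replicates with the same number were taken to come from the same experiment of a cell type, which is inferred from the numbering. A knockdown by siRNA lowers a transcript in a culture without deleting it, and a single siRNA against Septin9 was used.

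Actin is the subunit of the thin filament and of the cortical and stress fibre networks, and mammals make it from a separate gene for each isoform. Actb and Actg1 encode the cytoplasmic beta and gamma actins found in nearly every cell, Acta2 and Actg2 the smooth muscle alpha and gamma actins, and Acta1 and Actc1 the skeletal and cardiac alpha actins of the sarcomere. In myogenic cells the cytoplasmic isoforms are known to be replaced by the sarcomeric ones, with the cardiac form ahead of the skeletal form, and Acta2 is known to be made for a time by undifferentiated myoblasts. Many actin genes are read by serum response factor (Srf) with its coactivators of the myocardin family, which sense free actin monomer, at a DNA element called the CArG box.

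The genes lie on 6 chromosomes of GRCm38.p6, and all are on the minus strand in the RefSeq annotation. Actc1 spans 114047282 to 114052875 on chromosome 2, Actb 142903115 to 142907976 on chromosome 5 and Actg2 83512909 to 83536251 on chromosome 6. Acta1 spans 123891758 to 123894775 on chromosome 8, Actg1 120345687 to 120348495 on chromosome 11 and Acta2 34240336 to 34255585 on chromosome 19. Promoter sequence was used for the 4 genes Actc1, Acta1, Actg1 and Acta2, and was not analysed here for Actb and Actg2. The 250 bases before the start were searched on both strands for the CArG box, that is CC, then 6 letters that are each A or T, then GG. A looser form was searched apart, in which exactly 1 of the 6 inner letters is C or G, so that exact boxes are not counted in it. The exact form was found in Actc1, Acta1 and Actg1 and in 1.47% of the 32851 promoters searched, and the looser form in 7.24% of them. Acta2 held 2 copies of the looser form and none of the exact form in this window. The start used for Acta2 was not the outer end of its RefSeq span given above, and both copies lie inside that span. Actc1 and Acta1 also held looser copies beside the exact one, and not all of these are shown. The stretches below, each 50 bases, read 5′ to 3′ on the gene's strand with the matching letters in capitals, are shown because they let the elements be compared across isoforms whose levels moved differently. The bases are from RefSeq on GRCm38.p6. A match describes the letters and does not show that a protein binds there.
Actc1, chr2:114052893-114052942, minus strand, exact form: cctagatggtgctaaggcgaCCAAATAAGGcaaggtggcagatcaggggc
Acta1, chr8:123894819-123894868, minus strand, exact form: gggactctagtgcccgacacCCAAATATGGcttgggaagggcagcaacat
Actg1, chr11:120348556-120348605, minus strand, exact form: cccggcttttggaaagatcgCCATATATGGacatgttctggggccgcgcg
Acta2, chr19:34255428-34255477, minus strand, looser form: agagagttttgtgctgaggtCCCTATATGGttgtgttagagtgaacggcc
Acta2, chr19:34255378-34255427, minus strand, looser form: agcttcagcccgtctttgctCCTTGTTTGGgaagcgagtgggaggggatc
Actc1, chr2:114053021-114053070, minus strand, looser form: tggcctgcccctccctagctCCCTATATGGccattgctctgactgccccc
The exact box ended 38 bases before the start in Actc1, 64 in Acta1 and 81 in Actg1. The farther element of Acta2 and the farthest of the looser elements in Actc1 had the same 10 letters. They ended 75 bases before the start used for Acta2 and 166 bases before that of Actc1.

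The libraries held between 20898611 and 27223414 counted reads, and the actins took between 0.921% and 1.14% of them, from 193811 to 284474 reads. Septin9 had 409 and 435 CPM (counts scaled to the library size with TMM factors) in control and 147 and 185 CPM in siRNA-treated C2C12 cells, and 376 and 473 against 208 and 159 CPM in primary myoblasts, so the target was lower in 4 of 4 pairs. The 6 myoblast genes were detected in every library and summed to 944 to 1749 CPM in C2C12 cells and 3496 to 6015 CPM in primary myoblasts. The 9 genes of differentiating muscle summed to 17.0 to 128 CPM in C2C12 cells but to 2616 to 13285 CPM in primary myoblasts, although the latter are labelled as proliferating. In C2C12 cells Thy1, a fibroblast gene, had 0 counts in all 4 libraries. The 7 fibroblast genes summed there to 2427 to 3148 CPM, mostly from Col3a1 at 2256 to 2937 CPM. In primary myoblasts they stood apart by replicate, with 357 and 326 CPM (control and siRNA) in replicate 1 and 854 and 1027 CPM in replicate 2, Pdgfra at 1.03 and 0.896 CPM in replicate 1 and 31.7 and 32.1 CPM in replicate 2, and Col1a1 at 6.83 and 4.84 against 249 and 378 CPM. Genes of endothelial cells summed to at most 4.10 CPM and those of macrophages to at most 2.75 CPM in any library. In bulk RNA, fewer cells of a type and less of a transcript per cell cannot be told apart.

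C2C12 cells and primary myoblasts drew on different actins. In control C2C12 cells the cytoplasmic actins took 75.9% and 70.7% of actin reads in replicates 1 and 2, the smooth muscle actins 24.0% and 29.0%, and the striated actins 0.0850% and 0.294%. In control primary myoblasts the cytoplasmic actins took 46.4% and 78.2%, the smooth muscle actins 6.96% and 7.34%, and the striated actins 46.6% and 14.5%. The striated share thus separated the cell types, and within primary myoblasts it separated the 2 experiments. The 95% Wilson interval of a share reached at most 0.223 percentage points to either side, and these intervals cover counting error only. For the rarest, Actc1 in control C2C12 replicate 1 at 0.0153%, it ran from 0.0110% to 0.0212%.

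**Figure D1:**
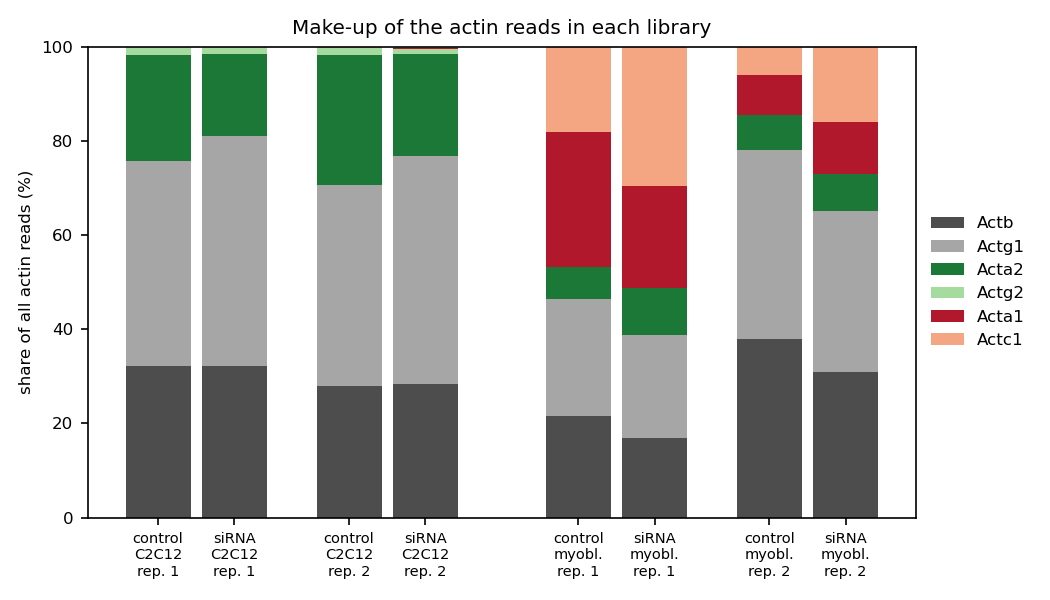
Share of each actin in all actin reads (%) in the 8 libraries, control and Septin9 siRNA side by side within each replicate. Striated actins (red tones) fill 14.5% to 51.2% of the bars of primary myoblasts and at most 0.380% in C2C12 cells, where smooth muscle actins (green) fill 18.9% to 29.0%.

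Levels per length were compared between isoforms as RPKM (reads scaled to the library size and to the kilobases of the longest protein-coding transcript). In control C2C12 cells the order was Actg1 at 2370 ± 71.5 RPKM, Actb at 1674 ± 188, Acta2 at 1311 ± 171, Actg2 at 124 ± 10.7, Acta1 at 8.78 ± 5.05 and Actc1 at 5.06 ± 5.57 (SD, n = 2). In that order the values of Acta1 and Actc1 did not differ beyond their SD. In control primary myoblasts the order was Actg1 at 1785 ± 475 RPKM, Actb at 1652 ± 526, Acta1 at 1432 ± 1162, Actc1 at 904 ± 697, Acta2 at 379 ± 14.7 and Actg2 at 1.54 ± 0.896 (SD, n = 2). There the spread of each of the 5 upper isoforms reached that of its neighbour, and Actg2 alone lay clear below. After Septin9 siRNA, Actc1 (1614 ± 822 RPKM) had the highest mean of the 6 actins in primary myoblasts, ahead of Actg1 (1453 ± 320), with SDs that overlapped. Counts of Actg1 carry an added limit, since 43.5% of the 150-base windows of its transcript occur unchanged in the pseudogenes Gm12715, Gm16385 or Gm8399, whereas no window of the other 5 actins occurs in another gene. None of these pseudogenes is an entry of the count matrix.

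Between the control cells of the 2 types, 4 of 6 actins differed at an adjusted p under 0.05 (quasi-likelihood test of edgeR, adjusted by Benjamini-Hochberg over 17103 genes), where 34.5% of all genes did, 16.2% higher and 18.3% lower in C2C12 cells, and 33.3% with a change of at least 1.5-fold as well. Acta1, skeletal alpha actin, had 7.28 and 17.7 CPM in C2C12 cells against 3347 and 893 CPM in primary myoblasts, a log2 fold change of -7.42 (SE 0.96, edgeR adjusted p = 0.0089). Actc1, cardiac alpha actin, had 1.59 and 13.1 CPM against 2113 and 613 CPM (log2 fold change -7.53, SE 1.34, edgeR adjusted p = 0.017). The smooth muscle isoforms went the other way. Acta2 was 1.72 higher on the log2 scale in C2C12 cells (SE 0.18, edgeR adjusted p = 0.0062). Actg2, smooth muscle gamma actin, had 169 and 153 CPM in C2C12 cells against 1.25 and 2.94 CPM (log2 fold change 6.24, SE 0.44, edgeR adjusted p = 0.0037). Without either control C2C12 replicate, only Acta2 and Actg2 stayed past the threshold, with edgeR adjusted p between 0.040 and 0.049. Actb and Actg1 were not called, at -0.05 (SE 0.25) and 0.34 (SE 0.22). Cell type, medium, time after transfection and the 12 h of differentiation cannot be told apart in this comparison.

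**Figure D2:**
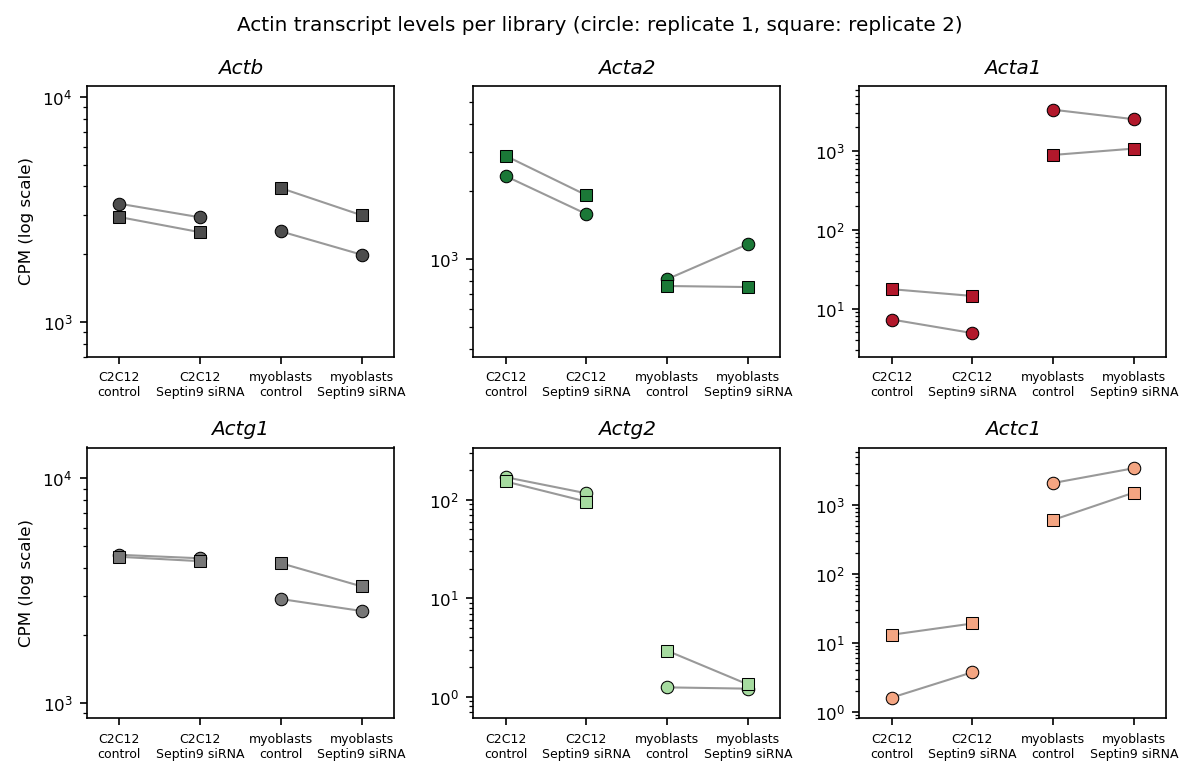
Level of each actin in CPM (log axis, 8 libraries scaled together) with lines joining control and Septin9 siRNA of a replicate. Acta1 and Actc1 lie at 1.59 to 19.1 CPM in C2C12 cells and at 613 to 3470 CPM in primary myoblasts, while Actg2 spans 95.7 to 169 CPM in C2C12 cells and 1.21 to 2.94 CPM in primary myoblasts.

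The effect of Septin9 siRNA in C2C12 cells was tested within the replicate pairs. Both smooth muscle actins fell, cardiac alpha actin rose, and skeletal alpha actin and the cytoplasmic actins did not pass the test. That is 3 of 6 actins called at an adjusted p under 0.05 (edgeR), 1 higher and 2 lower, where 6.75% of 15814 genes were called, 2.64% higher and 4.12% lower. With a change of at least 1.5-fold as well, 2 actins were left, Actg2 and Actc1, against 1.57% of genes.

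Acta2 had 51419 and 78304 reads in control replicates 1 and 2 of C2C12 cells and 34044 and 46085 reads after Septin9 siRNA. Scaled to the libraries, both siRNA values lay below both control values, and the pairs gave log2 ratios of -0.59 and -0.57. The log2 fold change was -0.58 (SE 0.09, edgeR adjusted p = 0.00029), just under the 1.5-fold change that the study asks for besides. Actg2 had 3720 and 4163 reads in control and 2492 and 2292 after siRNA. Its pairs were as close, at -0.57 and -0.66, and its log2 fold change was -0.62 (SE 0.07, edgeR adjusted p = 9.1e-06). The groups did not overlap for either gene, but with 2 libraries against 2 the smallest p of an exact permutation test is 0.33. For both genes the difference between replicates 1 and 2 of the control (0.25 and -0.19 on the log2 scale) was smaller than the effect.

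Actc1 was rare in C2C12 cells, with 35 and 356 reads in control replicates 1 and 2 and 80 and 457 reads after Septin9 siRNA. It was higher after siRNA in each pair, by 1.16 and 0.55 on the log2 scale, but the groups overlapped, because replicate 2 stood 2.93 above replicate 1 in the control. The log2 fold change of Actc1 was 0.72 (SE 0.16, edgeR adjusted p = 0.0082), and DESeq2 with the same block gave 0.81 with an adjusted p of 0.17. Acta1, with 160 and 480 reads in control and 105 and 347 after siRNA, moved the opposite way, at -0.59 and -0.27 in the pairs. Its log2 fold change of -0.40 (SE 0.13) did not pass (edgeR adjusted p = 0.084). The 9 genes of differentiating muscle summed to 17.0 and 76.6 CPM in control and 42.3 and 128 CPM after siRNA in the same libraries. Of these, edgeR called 5 of 8 tested higher (2.64% of all genes) and DESeq2 called 2 (282 of 24889 genes with reads, some of which got no adjusted p). Their part in the result for Actc1 was not tested.

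Actb, with 73667 and 79519 reads in control and 62555 and 59961 after siRNA, changed by -0.22 (SE 0.09, edgeR adjusted p = 0.18), with pairs at -0.23 and -0.21. Actg1, with 100338 and 121652 reads against 94535 and 102455, changed by -0.06 (SE 0.10, edgeR adjusted p = 0.80). The 6 actins together took 1.08% and 1.06% of reads in control and 0.927% and 0.921% after siRNA, a change of the summed reads of -0.23 on the log2 scale (SE 0.11) that was not called (edgeR adjusted p = 0.26). Leaving out a pair changed these calls, and far fewer of all genes were called in those fits as well. Without replicate 1 of C2C12 cells, with primary myoblasts kept in the fit so that the spread was pooled, Actg2 alone was called (edgeR adjusted p = 0.0099), with Acta2 at 0.62 and Actc1 at 0.92, and without replicate 2 none was, at 0.097, 0.45 and 0.20.

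In primary myoblasts Actc1 rose and edgeR called no other actin, 1 of 6 where 4.99% of 17117 genes were called, 3.95% higher and 1.04% lower, and 3.17% with a change of at least 1.5-fold as well. Actc1 had 49184 and 16496 reads in control replicates 1 and 2 and 77503 and 32146 after Septin9 siRNA. In CPM this was 2113 and 613 against 3470 and 1533, so that replicate 2 with siRNA lay below replicate 1 of the control and the groups overlapped. The pairs gave log2 ratios of 0.69 and 1.35, and the log2 fold change was 1.02 (SE 0.17, edgeR adjusted p = 0.0019), which is 2.03-fold. Without replicate 1 it was 1.33 and without replicate 2 it was 0.71. The 9 genes of differentiating muscle were higher in the same libraries, with 9339 and 2616 CPM in control and 13285 and 7306 CPM after siRNA. Of these, edgeR called 8 of 9 higher (3.95% of all genes) and DESeq2 called 6 (254 of 27057 genes with reads, some of which got no adjusted p). Their part in the rise of Actc1 was not tested.

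Acta1 had 77905 and 24009 reads in control primary myoblasts and 56622 and 22535 after siRNA. The pairs disagreed in sign, at -0.42 and 0.30, and the log2 fold change was -0.06 (SE 0.18, edgeR adjusted p = 0.91). Acta2 had 18946 and 20424 reads in control and 26030 and 15751 after siRNA. The pairs gave 0.50 and 0.01, the latter below 0 when all 8 libraries were scaled together, with a log2 fold change of 0.25 (SE 0.15, edgeR adjusted p = 0.43). Actg2 was near the lower end of detection, with 29 and 79 reads in control and 27 and 28 after siRNA, and its -0.65 (SE 0.34, edgeR adjusted p = 0.36) came from replicate 2.

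The cytoplasmic actins were lower in each pair of primary myoblasts without passing edgeR's test. Actb had 58780 and 105797 reads in control and 44440 and 62453 after siRNA, with pairs at -0.37 and -0.37 and a log2 fold change of -0.37 (SE 0.16, edgeR adjusted p = 0.25). Actg1 had 67610 and 112697 against 57389 and 69300 reads, with pairs at -0.20 and -0.31 (log2 fold change -0.26, SE 0.16, edgeR adjusted p = 0.48). DESeq2 on the deposited batch-corrected counts called both beside Actc1, Actb at -0.38 (adjusted p = 8.5e-05) and Actg1 at -0.26 (adjusted p = 0.033). That setting has no replicate block, because the effect of the experiment was removed from the counts beforehand. Its p-values do not allow for that removal and can be too small. It called 744 of 27062 genes with reads, against 254 of 27057 for DESeq2 with the block. In replicate 2, where the fibroblast genes were high, Actb stood 0.64 and Actg1 0.53 above replicate 1 in the control, whereas Acta1 stood 1.91 and Actc1 1.79 below it. That difference between experiments was larger than the change after siRNA for each of these 4 genes, and the part of fibroblasts in it was not tested. Calls in primary myoblasts depended on the replicate that was left out, and more of all genes were called in either such fit. Calls gained there were therefore not read as results. Without replicate 1 the log2 fold change was -1.13 for Actg2 and -0.39 for Actb. Without replicate 2 it was -0.40 for Acta1 and 0.51 for Acta2.

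**Figure D3:**
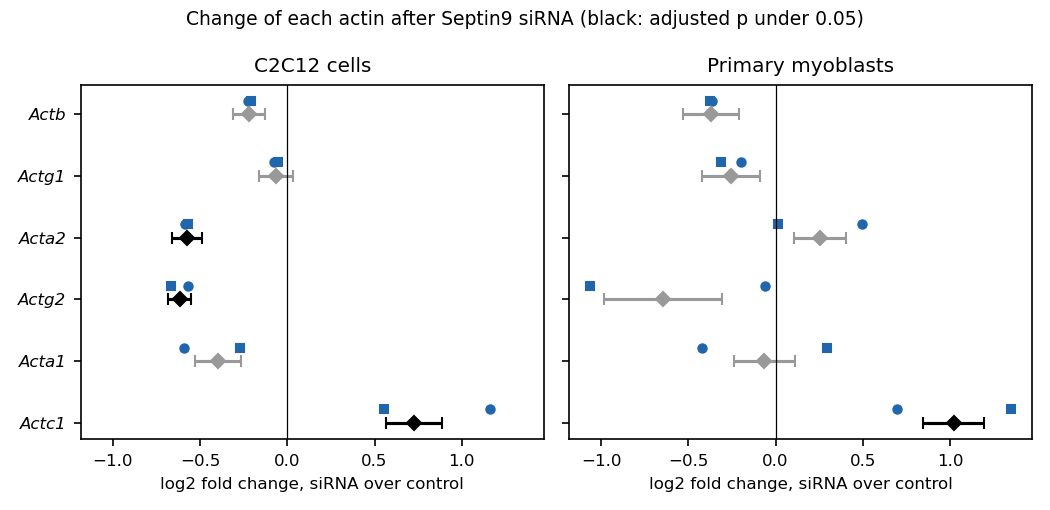
Log2 fold change of each actin after Septin9 siRNA in C2C12 cells (left) and primary myoblasts (right), with diamonds and bars for the edgeR estimate and its SE (black where called, grey where not) and blue circles and squares for the pairs of replicates 1 and 2. Actc1 lies at 0.72 and 1.02, and the smooth muscle actins at -0.58 and -0.62 in C2C12 cells.

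Whether an actin responded differently in the 2 cell types was tested by the interaction in a fit of all 8 libraries, with the experiment as a block within each cell type. No actin was called by edgeR, and no gene of 17918 (0%) was, while 8.20% had an unadjusted p under 0.05 and DESeq2 called 17 genes, among them Acta2. Acta2 came closest among the actins, with a difference of 0.82 (SE 0.19, unadjusted p = 0.0015, edgeR adjusted p = 0.29, DESeq2 adjusted p = 0.00086). The other differences, primary myoblasts minus C2C12 cells, ran from -0.20 (SE 0.17) for Actg1 to 0.33 (SE 0.25) for Acta1. The rise of Actc1 differed by 0.31 (SE 0.27, edgeR adjusted p = 0.82), with an error too large to call the responses alike or different.

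Shares and ratios within a library do not depend on how libraries are scaled. They were compared over the 4 pairs by an exact two-sided sign-flip permutation test, whose smallest p with 4 pairs is 0.13. The share of Actc1 in actin reads was higher after siRNA in 4 of 4 pairs, by 1.09 ± 0.40 on the log2 scale (SD, n = 4, exact permutation p = 0.13). In primary myoblasts it went from 18.1% to 29.6% and from 5.90% to 15.9%, and in C2C12 cells from 0.0153% to 0.0413% and from 0.13% to 0.22%. The share of Actg2 was lower in 4 of 4 pairs, by -0.46 ± 0.41 (SD, n = 4, exact permutation p = 0.13), and by -0.27 without pair 2 of primary myoblasts, where 79 and 28 reads were counted. The ratio of striated to cytoplasmic actin reads was higher in 4 of 4, by 0.47 ± 0.48 (SD, n = 4, exact permutation p = 0.13), at 1.01 to 1.32 and 0.185 to 0.415 in primary myoblasts and at 0.00112 to 0.00118 and 0.00416 to 0.00495 in C2C12 cells. Its mean was 0.24 without pair 2 of primary myoblasts and 0.12 with the smooth muscle actins added to the striated ones, and in pair 1 of C2C12 cells the Wilson intervals of the striated share overlapped. Adjusted over the 7 quantities tested, these p-values were 0.292. The shares of Acta1, Acta2, Actb and Actg1 did not move one way in all pairs, with exact permutation p between 0.5 and 1.

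Some shares moved in opposite directions in the 2 cell types. The share of Acta2 went from 22.4% to 17.6% and from 27.5% to 21.8% in C2C12 cells and had 6.95% and 7.31% in control and 9.94% and 7.79% after siRNA in primary myoblasts. Actg1 went from 43.8% to 48.8% and from 42.8% to 48.4% in C2C12 cells but from 24.8% to 21.9% and from 40.3% to 34.3% in primary myoblasts. The share of Actb was nearly level in C2C12 cells, at 32.1% and 27.9% in control and 32.3% and 28.3% after siRNA, and was lower in both pairs of primary myoblasts, at 21.6% and 37.9% against 17.0% and 30.9%. With total actin reads as the library size, the C2C12 estimates of Actb and Actg1 were 0.01 and 0.17, against -0.22 and -0.06 with TMM, and the median of all genes moved by 0.23 with them. That scaling is made mostly of these 2 genes, so its signs say nothing of their direction.

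Within the replicate pairs of these libraries the skeletal and cardiac isoforms did not keep their ratio. The ratio of Acta1 to Actc1 reads was 4.57 and 1.35 in control C2C12 cells and 1.31 and 0.759 after siRNA, and 1.58 and 1.46 against 0.731 and 0.701 in primary myoblasts. It was lower in 4 of 4 pairs. The groups did not overlap in either cell type, where 2 libraries against 2 allow no exact permutation p under 0.33. In C2C12 cells they were barely apart, at 1.35 in control replicate 2 and 1.31 in siRNA replicate 1. The latter rests on 105 reads of Acta1 and 80 of Actc1, and the 4.57 on 35 reads of Actc1. The mean log2 change was -1.20 ± 0.42 (SD, n = 4, exact permutation p = 0.13, the smallest possible). In control primary myoblasts the ratios of the 2 experiments were close, although each gene alone differed between them by at least 1.79 on the log2 scale. The ratio of Actb to Actg1 was also lower in 4 of 4 pairs, by -0.13 ± 0.05 (SD, n = 4, exact permutation p = 0.13), from 0.734 to 0.662 and from 0.654 to 0.59 in C2C12 cells and from 0.869 to 0.774 and from 0.939 to 0.901 in primary myoblasts. These ratios were chosen after the values were seen.

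**Figure D4:**
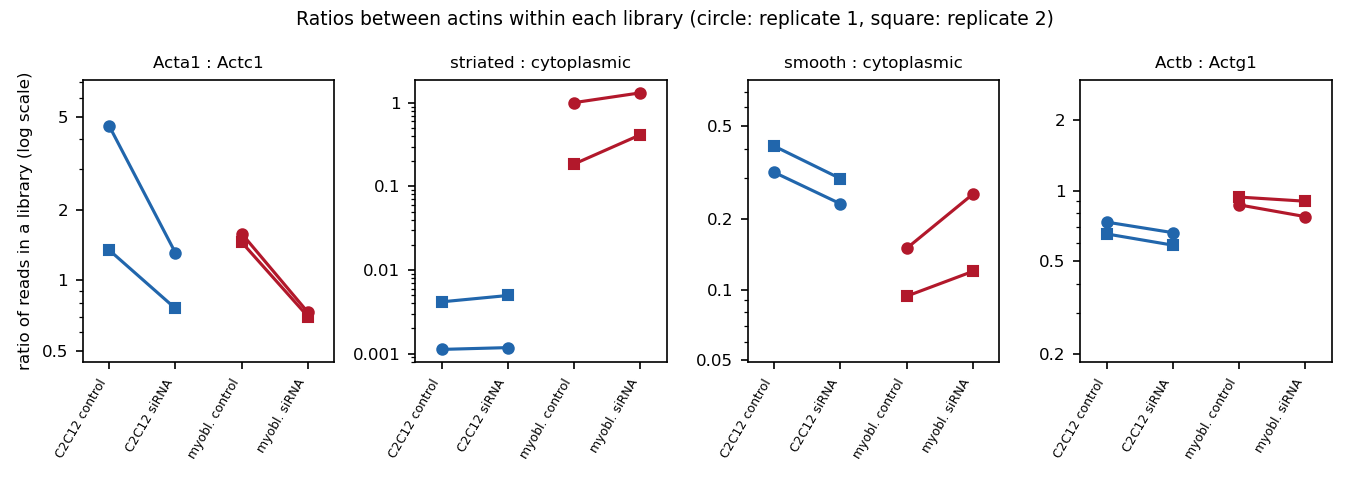
Ratios between actin reads within each library (log axes), with lines joining control and Septin9 siRNA of a replicate, C2C12 cells in blue and primary myoblasts (myobl.) in red. The ratio of Acta1 to Actc1 is lower with siRNA in 4 of 4 pairs, whereas that of smooth muscle to cytoplasmic actins goes from 0.317 to 0.233 and from 0.410 to 0.298 in C2C12 cells and from 0.150 to 0.256 and from 0.0938 to 0.120 in primary myoblasts.

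The regulators of actin were read from lists by their role, against a background of 2.64% of all genes called higher and 4.12% lower in C2C12 cells and 3.95% higher and 1.04% lower in primary myoblasts. Of 15 genes of monomer binding and turnover, 3 were lower in C2C12 cells and none higher, and in primary myoblasts 2 were higher and 1 lower. Dstn, the filament-severing protein destrin, was lower in both, at -0.45 (SE 0.07) and -0.48 (SE 0.13). Wdr1 (-0.28), which speeds disassembly with cofilin, and Cap1 (-0.26), a cyclase-associated protein that recycles monomer, were lower in C2C12 cells, and the muscle forms Cap2 (0.42) and Cfl2 (0.43) were higher in primary myoblasts. DESeq2 with the same block called 3 of these genes in C2C12 cells but 0 in primary myoblasts. Over all genes with reads it called 282 of 24889 and 254 of 27057, the background for its counts in the lists below. These totals include genes to which DESeq2 gave no adjusted p, so they understate the background for lists of well-expressed genes. The medians of this list were -0.04 and -0.06, against -0.00 and 0.01 for all genes.

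Of 26 genes of nucleation and elongation, 4 were lower in C2C12 cells, and 4 were higher and 1 lower in primary myoblasts. The leiomodins, which nucleate actin filaments in muscle, gave the widest spread. Lmod1, the smooth muscle form, was -1.0 (SE 0.09) in C2C12 cells and 0.94 (SE 0.25) in primary myoblasts. In the latter it was low, at 1.71 and 3.35 CPM in control and 4.39 and 5.02 CPM after siRNA. Its difference between cell types was not called by edgeR. Lmod2 and Lmod3, the striated forms, were 0.95 (SE 0.15) and 0.71 (SE 0.14) in primary myoblasts. Fhod3, a formin of the sarcomere, was 1.08 (SE 0.13) there. Arpc1a, a subunit of the Arp2/3 complex that makes branched networks, was lower in both cell types, at -0.58 (SE 0.07) and -0.41 (SE 0.11), with Arpc5 at -0.35 in C2C12 cells. DESeq2 called 4 of these genes in C2C12 cells, against 3 in primary myoblasts. The median of this list was -0.03 in C2C12 cells and -0.09 in primary myoblasts.

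Of the genes of filament side binding and capping, 1 of 19 tested was higher and 1 lower in C2C12 cells, and 4 of 20 were higher and 1 lower in primary myoblasts. Actn3, an alpha-actinin of fast muscle, was higher in both, at 0.66 (SE 0.08) and 0.77 (SE 0.15), and Actn2 (1.00) and Tpm2 (0.68), a sarcomeric alpha-actinin and a tropomyosin, were higher in primary myoblasts. Actn1, the non-muscle alpha-actinin, was -0.24 in C2C12 cells. The single calls each way in C2C12 cells are near the background shares, and DESeq2 called 3 genes of this list there and 2 in primary myoblasts. None of 16 chaperones and modifying enzymes of actin was called by edgeR or DESeq2 in either cell type, and 0 had an unadjusted p under 0.05 in edgeR, where they ran from -0.12 to 0.14 in C2C12 cells and from -0.16 to 0.15 in primary myoblasts.

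Of the transcription regulators of actin genes, Srf was lower in C2C12 cells, with 100 and 110 CPM in control and 65.2 and 88.3 after siRNA (-0.47, SE 0.08, edgeR adjusted p = 0.00098), and Mrtfb was -0.31 (SE 0.08). EdgeR called both there, whereas DESeq2 called 1 gene of this list. Mrtfa, at 0.02, was not called, and none of the 4 was called in primary myoblasts by edgeR or DESeq2 (2 at an unadjusted p under 0.05 in edgeR), where Srf was -0.24 (SE 0.11, edgeR adjusted p = 0.29). Of 5 tested marker genes of smooth muscle, 4 were lower in C2C12 cells, Lmod1, Cnn1 (-0.84), Tagln (-0.49) and Smtn (-0.28), beside Acta2 and Actg2, where 4.12% of all genes were lower. In primary myoblasts 2 of 6 were higher, Lmod1 and Synpo2 (0.59), and none was lower, while DESeq2 called 3 in C2C12 cells but 0 in primary myoblasts. The 7 smooth muscle genes summed to 527 and 511 CPM in control and 429 and 343 CPM after siRNA in C2C12 cells, and to 371 and 370 against 423 and 341 CPM in primary myoblasts, and the defining factor Myocd had at most 0.477 CPM in any library.

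**Figure D5:**
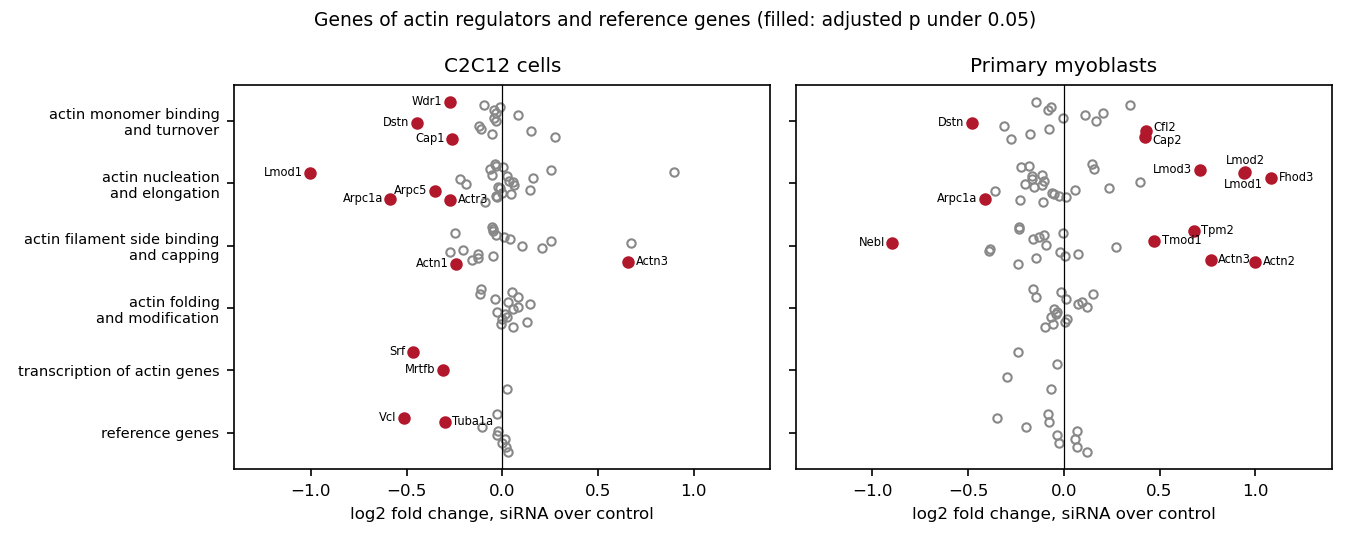
Log2 fold change after Septin9 siRNA of each tested gene of 5 lists of actin regulators and of the reference genes, with called genes filled and named. Called genes of the turnover and nucleation lists lie below 0 in C2C12 cells, and Lmod2, Lmod3 and Fhod3 lie above 0.7 in primary myoblasts.

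Actb is often used as a reference for expression, so 10 other reference genes were read the same way. Vcl, vinculin, was lower in C2C12 cells, at -0.51 (SE 0.07, edgeR adjusted p = 0.00014), with 540 and 598 CPM in control and 368 and 436 after siRNA, and Tuba1a was -0.30 (SE 0.08). The other 8, Gapdh, Hprt, Tbp, B2m, Ppia, Ywhaz, Pgk1 and Sdha, lay between -0.10 and 0.03 and were not called. In primary myoblasts none of the 10 was called by edgeR or DESeq2 (1 at an unadjusted p under 0.05 in edgeR), and they lay between -0.35, for Vcl, and 0.12. Actb at -0.22 and -0.37 was thus farther from 0 than each of those 8 in both cell types.

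The genes whose log2 CPM tracked each actin most closely over the 8 libraries were named from 10086 genes, as a description in which cell type sets most of the spread. Actc1 was tracked by Lmod2 (r = 1.000), Chrng, the fetal gamma subunit of the acetylcholine receptor, and Unc45b, a myosin chaperone, and after centring each cell type r was 0.998 for Lmod2, 0.991 for Chrng and 0.987 for Unc45b. Lmod2 had 25.4 to 136 CPM in primary myoblasts but 0 to 0.877 CPM in C2C12 cells, so its tracking within C2C12 cells rests on values near 0. Acta1 was tracked by Tspan7, Msi2 and Auts2 (r between 0.996 and 0.997) and correlated with Actc1 at 0.984, or 0.778 within cell types. Actg2 was tracked by Selenoo, 9930012K11Rik and Pcif1 (r of 0.998 to 0.999, and 0.890 to 0.943 within cell types), and Acta2 by 1110059G10Rik, Bnip3l and Slu7 (r of 0.979 to 0.989). The cytoplasmic pair moved together within cell types, at 0.957. Actb was tracked by Tmem120a, Fam171a1 and Iffo2 (r of 0.973 to 0.977) and Actg1 by Cbx2, Gm20346 and Prpsap1 (r of 0.986 to 0.995). The 8 points share 4 groups and 4 experiments, so these values carry no test.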

How the data were processed

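Polyadenylated RNA of the 8 samples was sequenced in paired-end reads. Per the labels, the authors used STAR 2.7.2, GRCm38.p6, featureCounts 2.0.1 and DESeq2 1.40.1, and they deposited raw counts per gene of all samples. They also deposited, per cell type, a normalized signal of ComBat-Seq counts divided by size factors, in which 100% of values were whole multiples of 1 read (tolerance 0.01), so whole counts were recovered for an alternative. Left out were 16 broken lines that split 5 genes. Counting by strand is not given in the sources used here.

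Genes were kept by filterByExpr, scaled by TMM and tested in R 4.3.3 with edgeR 4.0.16 (quasi-likelihood, Benjamini-Hochberg adjustment over all genes, threshold 0.05), with the replicate number as a block, as the study removes the effect of independent experiments. Same-numbered samples moved together around their group means (r across genes 0.678 for C2C12 and 0.820 for primary myoblasts). The comparison of control cells had no block. CPM were set over 8 libraries together, and pair ratios used a prior count of 2. Whether replicates of a cell type came from separate animals is not stated. The edgeR p-values of siRNA effects rest on how well the replicate pairs agreed, and not on the difference between replicates. Within a cell type the block leaves little spread per gene to measure, so these p-values lean on spread pooled across genes. Those of the control cells measure the spread between these samples. Fits were tested on simulated counts. Named genes are Septin9, the actins, the 3 genes most correlated with each actin (mean of at least 10 CPM), the 3 called genes of smallest p per list and cell type, and the reference genes, of which 1 is not reported here. Smtn, Pdgfra, Col1a1, Arpc1a in primary myoblasts and further called genes of the plot of regulators are named after their values were seen. The members and lists were chosen with earlier results of these data known. DESeq2 1.42.0, other scalings, filters and left-out replicates were alternatives. Shares, sequences and figures were made in Python 3.11.15 (scipy 1.17.1, pandas 2.3.3, numpy 2.4.6, matplotlib 3.10.9).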

Additional observations from a re-analysis of the deposited data

Results flagged for a closer look

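The log2 fold change of Acta2 after Septin9 siRNA was 0.82 higher in primary myoblasts than in C2C12 cells (interaction, SE 0.19), with an unadjusted p of 0.0015 in edgeR. It was lower in 2 of 2 pairs of C2C12 cells. In primary myoblasts the pairs were 0.50 and 0.01, and the latter was below 0 when all 8 libraries were scaled together. It did not pass edgeR's adjustment over all genes (adjusted p = 0.29), and DESeq2 called it.

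The shares of 3 actins in all actin reads moved in opposite directions in the 2 cell types in every pair. The mean log2 change in primary myoblasts minus that in C2C12 cells was 0.65 for the share of Acta2, -0.33 for the share of Actb and -0.38 for the share of Actg1. These differences were not tested. For Actb the changes in C2C12 cells were 0.01 and 0.02, and in pair 1 the Wilson intervals of control and siRNA overlapped. Shares of one total are not independent of each other.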

How the results depend on the processing

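In C2C12 cells edgeR called 3 actins, and 5 were called with no filter on low counts, 1 with all 8 samples in one fit, none with no replicate block, and 0 to 1 without a replicate pair. In primary myoblasts it called 1, and none was called with no replicate block and 3 with DESeq2 on the batch-corrected counts (Actc1, Actb and Actg1). That last setting called 744 of 27062 genes with reads. Without the replicate block no gene at all was called in either cell type, with 372 and 378 genes at an unadjusted p under 0.05. For the difference between cell types, 1 actin was called with no filter and 1 with DESeq2. Calls gained without a pair, here or in primary myoblasts, are not given, as more of all genes were called there too. Between the control cells, 4 were called, and 2 to 4 without a library.

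With total actin reads as the library size, the C2C12 changes of Actb and Actg1 were 0.013 and 0.17, signs set by a scaling that moved all genes and consists mostly of these 2. Actb between the control cells became 0.018 by library size alone. Leaving out 1 pair or library at a time gave these extremes for the results that turned their sign. In primary myoblasts they were -0.40 and 0.28 for Acta1, -0.0079 and 0.51 for Acta2 and -0.011 and 0.51 for the smooth actin sum, and in C2C12 cells -0.043 and 0.13 for the striated actin sum. For the difference between cell types they were -0.013 and 0.66 for Acta1, -0.20 and 0.66 for Actc1, and -0.50 and 0.58 for Actg2, and for Actb between the control cells -0.31 and 0.32. For the mean change over pairs they were -0.20 and 0.090 for the share of Acta2, -0.086 and 0.052 for the share of Actg1, and -0.19 and 0.23 for the ratio of smooth muscle to cytoplasmic actins. The cause of the shifts without a pair or library was not tested. Fits without a pair assume that the lone samples vary like the other cell type's. The sums and ratios of isoforms were added after the data were examined.
Precision is limited by 2 replicates per group, and for Actc1 and Acta1 in C2C12 cells and Actg2 in primary myoblasts by low counts.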
